A study of Mus musculus with 4 samples.

Results

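Long intergenic noncoding RNA (lincRNA) exons were read by 5802 probes of a custom 1-colour array, in mouse embryonic fibroblasts early and late in culture. These probes are the non-control spots whose systematic name begins with linc_. They carry 1074 distinct names, each treated as 1 region, out of 21646 names and 43553 probes on the array. The growing cells were at passage 2 and the cells at the onset of replicative senescence at passage 7, with 2 arrays for each passage. The medium was DMEM with serum and antibiotics in both groups, no agent was added, and the labels give no strain, genotype or embryonic age. RNA of 3 independent cultures was pooled before hybridisation, per the labels. If both arrays of a passage read that pool they are technical repeats, and p-values then measure only the spread between arrays. Each passage also had its own places on the slide, so the effects of place and passage cannot be told apart.

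LincRNAs are transcripts of regions between protein-coding genes that are capped, spliced and polyadenylated much like mRNA but are not thought to encode protein. Many are made in small amounts and in few cell types, and several act in the nucleus, on chromatin or on nuclear bodies. Primary fibroblasts divide for a limited number of passages and then arrest. Gas5, the host gene of a group of small nucleolar RNAs, was named for its build-up in growth-arrested cells.

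The region names hold a gene symbol or cDNA clone name and an exon number, and no coordinates. Most are cut at 27 characters (900 of 1074), so that some names merge exons. Of 853 gene or clone names, 563 matched a RefSeq gene of assembly GRCm38.p6. In all, 751 regions are named after a protein-coding gene, 255 after an AK cDNA clone, and 14 after a gene that RefSeq lists as noncoding RNA. A name gives no more than a label of the region: the distance and strand it stands for are not stated in the labels or files. The probes fall into 4 sets by their identifiers, called A, B, C and D here, with 1582 probes each in A and B and 1319 each in C and D. Sets A and B repeat the same numbers and names, as do C and D, and what the sets stand for is likewise not stated.

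The files used here hold no probe sequences. For orientation, the RefSeq promoter windows (GRCm38.p6, 300 bases that span the start) of 3 noncoding genes that regions are named after are shown, because these regions recur in the results below. Malat1 is a long nuclear RNA of splicing speckles. The window of Gas5, the snoRNA host, is the upstream one of 2 in the table. Capitals mark matches, on either strand, to the motifs searched: the GC box GGGCGG, the CCAAT box, the TATA box TATAAA and the E-box CACGTG.
Malat1, chr19:5802623-5802922, minus strand: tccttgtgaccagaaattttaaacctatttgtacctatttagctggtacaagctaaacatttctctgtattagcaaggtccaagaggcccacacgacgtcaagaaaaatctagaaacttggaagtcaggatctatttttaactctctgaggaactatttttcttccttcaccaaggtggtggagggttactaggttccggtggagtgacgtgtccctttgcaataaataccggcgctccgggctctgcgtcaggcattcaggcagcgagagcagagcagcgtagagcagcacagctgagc
Gas5, chr1:161034351-161034650, plus strand: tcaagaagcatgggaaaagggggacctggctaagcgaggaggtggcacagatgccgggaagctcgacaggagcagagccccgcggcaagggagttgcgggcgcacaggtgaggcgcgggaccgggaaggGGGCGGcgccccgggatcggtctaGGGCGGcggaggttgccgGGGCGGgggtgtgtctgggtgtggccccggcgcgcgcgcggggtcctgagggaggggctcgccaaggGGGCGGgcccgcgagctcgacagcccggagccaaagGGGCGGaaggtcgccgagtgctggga
Phxr4, chr9:13431111-13431410, plus strand: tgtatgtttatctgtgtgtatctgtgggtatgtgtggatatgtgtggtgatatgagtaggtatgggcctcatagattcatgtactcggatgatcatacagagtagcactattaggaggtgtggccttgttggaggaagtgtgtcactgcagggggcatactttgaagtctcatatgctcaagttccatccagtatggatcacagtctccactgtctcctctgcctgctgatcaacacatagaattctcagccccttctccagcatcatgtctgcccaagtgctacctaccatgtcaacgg
The Gas5 window holds GGGCGG 5 times, and the windows of Malat1 and Phxr4 hold none of the 4 motifs. Among all 32851 windows of this length in the table, 35.7% hold the GC box, 37.4% the CCAAT box, 13.6% the TATA box and 7.15% the E-box. No matches overlap in these windows, and a match is a stretch of letters, not a known binding site.

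Most lincRNA probes were dim. A probe was kept when at least 1 passage showed it well above background on its 2 arrays and no outlier spot was marked, which 2298 lincRNA probes (39.6%) and 75.5% of the other probes met. An outlier spot was found for 18 lincRNA probes and none of the spots was saturated. The kept probes gave a value, their mean, to 700 regions (65.2%), and 374 regions had no kept probe and were not tested. At least 1 probe was well above background on both arrays in 689 regions at passage 2 and in 635 at passage 7. Both passages detected 624 regions, passage 2 alone 65 and passage 7 alone 11. With at least 3 such probes the counts were 356 and 293. The second passage 7 array was the dimmest, with a 75th percentile of processed signal of 402 against 964, 1024 and 1404 on the others, and 35.3% of lincRNA spots were well above background there against 40.8% to 42.6%. Of the spots of other features, 70.5% were well above background on that array, against 75.2% to 77.4% on the others. Detected names were not counted for other features, so the lower count is not shown to be particular to lincRNA regions. The part of the dimmer array in the lower count at passage 7 was not tested. In a bulk RNA sample, fewer cells that make an RNA and less RNA per cell cannot be told apart.

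All values below are log2 processed signals relative to the 75th percentile of the same array, so that 0 is that percentile, and differences are passage 7 minus passage 2 on the log2 scale. The median tested region lay at -5.03, against -1.52 for the other tested features, and 30 regions lay above 0. Such signals depend on the probe as well as on the RNA. The highest signals belonged to the regions named after Acpl2, Tulp3, Zfat1, Ptk2 and Commd10. The Acpl2 region read 6.69 and 6.39 at passage 2 and 6.95 and 7.26 at passage 7, and the Tulp3 region read 6.63 and 5.64, then 6.67 and 6.99. Ptk2 encodes focal adhesion kinase, and its region averaged 4.32 at passage 2 (SD 1.36, n = 2) and 5.76 at passage 7 (SD 0.34, n = 2). None of these 5 regions was called changed as a whole (changes of 0.49 to 1.45). In the Ptk2 region the passage 2 arrays lay further apart than the passage means. Fitted apart by probe set, a choice made after seeing the data, its set C rose by 1.54 and was called (limma, adjusted p = 0.0481). Its set D, at 4.82 and 1.78 on the passage 2 arrays, was not called.

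The lincRNA regions differed between arrays of the same passage more than other features did. On the second passage 2 array 86.1% of them read lower than on the first, with a median difference of -0.64, against -0.14 for the other features. On the second passage 7 array 85.6% read higher than on the first, with a median difference of 0.60, against 0.05. A gap of at least 2-fold between the passage 2 arrays was found in 165 of 700 regions (23.6%) and 8.09% of other features. Between the passage 7 arrays it was found in 121 regions (17.3%) and in 5.76% of other features. The median standard deviation (SD) between arrays of a passage was 0.52 for lincRNA regions and 0.23 for the rest. Among features with mean levels from -1 to 1, the median difference between the passage 2 arrays was -0.69 in 36 lincRNA regions and 0.015 in 3128 others. The direction of both shifts was the same under every scaling that was tried.

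**Figure D1:**
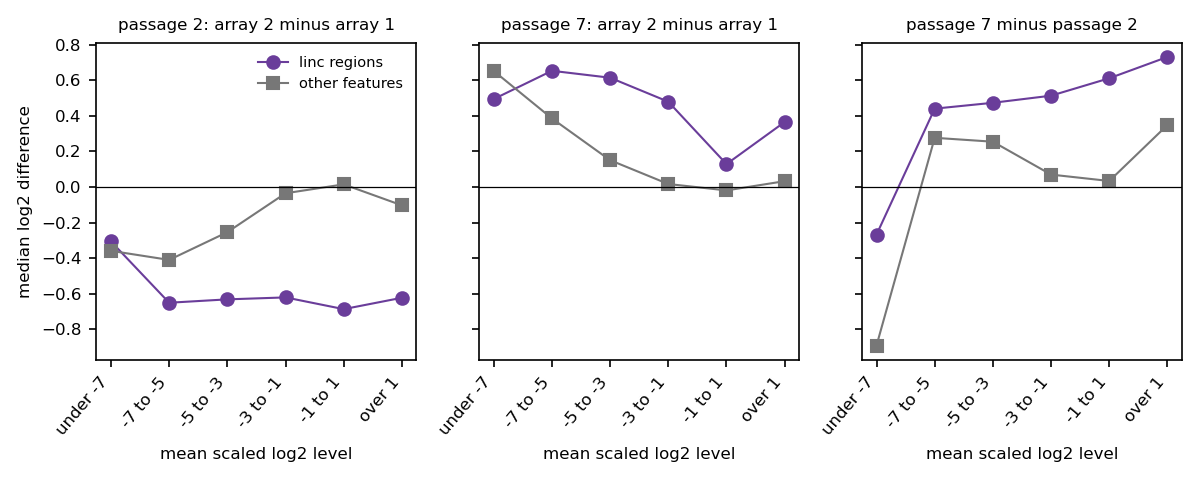
Median log2 difference between the 2 arrays of passage 2 (left), the 2 arrays of passage 7 (middle) and the passages (right), in 6 bins of mean scaled log2 level, for lincRNA regions (circles) and all other tested features (squares). From -7 upward the lincRNA medians lie below the others in the left panel and above them in the middle and right panels, and the lowest bin holds only 15 lincRNA regions.

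The lincRNA regions as a whole read higher at passage 7. Of 700 regions, 586 had a change above 0, with a median of 0.47 against 0.23 for all features tested. After quantile normalisation 499 did, with a median of 0.24, and in the authors' deposited values 408 did, with a median of 0.04. This median depended on which arrays were set against each other. The first passage 7 array against the first passage 2 array gave -0.21, the same array against the second passage 2 array gave 0.48, and the second passage 7 array gave 0.44 and 1.16. The shift of 0.47 was smaller in size than the median differences between arrays of a passage (-0.64 and 0.60). With array medians as the scale the lincRNA median was 0.30 and that of all features 0.06. The gap between them, 0.245, is the same under either scale by construction, since each subtracts 1 value per array. It was 0.19 after quantile normalisation, 0.96 with normexp background correction and 0.09 in the authors' deposited values.

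Single regions were tested with limma in a fit of all 16552 features and called where the adjusted p was below 0.05 and the change reached 2-fold. Of the 700 regions 35 (5%) were called, while 17.5% of all features tested were. Higher signal at passage 7 was called in 29 regions (4.14%), against 9.24% of all features, and lower signal in 6 (0.857%), against 8.30%. No test was made of the difference between these shares. Another 76 regions moved past 2-fold without being called, and 114 regions had an unadjusted p under 0.05. At the level of probes 158 of the lincRNA probes were called (6.88%), 121 higher and 37 lower, against 17.3% of all probes tested. All 35 called regions had at least 2 kept probes and in each of them all kept probes moved in 1 direction. Calling on the mean of kept probes favours such agreement, and 18 of the 35 had at least 3 kept probes. Of the 368 regions with at least 3 kept probes, 257 (69.8%) had all of them in 1 direction. Since 586 of the 700 regions had a change above 0, a shared direction is frequent whatever the region. Same-numbered probes of sets A and B also nearly repeat each other (r = 0.983 for levels), so kept probes are not all separate readings. The count of called regions rested on single arrays: it was 81 without the first passage 2 array, 0 without the second, 23 without the first passage 7 array and 16 without the second. Without the second passage 2 array no feature of the whole fit was called, although 88 lincRNA regions had an unadjusted p under 0.05 in limma.

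Among rises with at least 3 kept probes and signal at both passages, 14 in all, the 10 largest are described. The largest was in the region named after Kalrn, a guanine nucleotide exchange factor gene. It read -5.78 and -5.83 at passage 2 and -3.29 and -3.25 at passage 7, a rise of 2.54 ± 0.18 (SE; 5.80-fold; limma, adjusted p = 0.00869). The region means of the arrays within each passage nearly coincided. The sets did not: at passage 7 the arrays read -1.62 and -2.17 in set D and -6.63 and -5.41 in set C. Fitted apart, its set D probes rose by 3.23 (limma, adjusted p = 0.00991), while the change of 1.16 in its kept set C probe was not called. Another region named after Kalrn changed by 0.51 and was not called. The region named after the clone AK043252 read -2.95 and -3.41, then -0.73 and -0.89, a rise of 2.37 ± 0.24 (limma, adjusted p = 0.0115). Its 4 probes rose by 2.32 to 2.47, the narrowest range of these 10. They carry the same numbers in sets A and B, whose same-numbered probes nearly repeat each other (r = 0.983 for levels), so the narrow range adds little.

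The region named after Maml2, a coactivator of Notch signalling, read -4.50 and -4.35 at passage 2 and -2.17 and -2.02 at passage 7. It rose by 2.33 ± 0.19 (limma, adjusted p = 0.00927), and its arrays within a passage lay close together. RefSeq places the noncoding gene Phxr4 within the span of Maml2 in GRCm38.p6. The Phxr4 region read -3.44 and -5.77 at passage 2 and -0.96 and -1.50 at passage 7, a change of 3.37 ± 0.82 that was not called (limma, adjusted p = 0.0548). Its passages did not overlap, but the passage 2 arrays lay far apart (SD 1.65). Its call changed with the processing: it was called under 8 of 20 alternatives. Among genes that tested regions are named after, the other case of a span inside another was Hoxb4 within Hoxb3, whose regions changed by 0.18 and 0.17.

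Ctnnd1 encodes the catenin p120, and its region read -5.88 and -5.12, then -3.36 and -3.48, and rose by 2.08 ± 0.31 (limma, adjusted p = 0.0216). The region of clone BC061253 rose by 2.04 (limma, adjusted p = 0.0224), from -4.90 and -5.67 to -3.25 and -3.24. Fitted apart, its set D was called (3.13) and its set C was not (0.95). In both regions, the passage 2 arrays lay further apart (SD 0.54 and 0.55) than the passage 7 arrays (SD 0.08 and 0.01). Yap1 is the coactivator of the Hippo pathway, and its region read -6.17 and -6.85 at passage 2 and -4.75 and -4.97 at passage 7. Its rise of 1.65 ± 0.30 passed the test (limma, adjusted p = 0.03), and fitted apart, the change was 2.21 in set D, which was called, and 0.52 in the kept probe of set C, which was not.

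Dusp4 encodes a phosphatase of MAP kinases, and the region named after it read -2.67 and -2.88 at passage 2 and -1.43 and -1.09 at passage 7. It rose by 1.51 ± 0.22 (limma, adjusted p = 0.0206), and fitted apart, by 1.08 in set C. A kept probe of its set D was not well above background on either passage 2 array, so no size is given for that set. The other described rises were 1.53 in the SASH1 region, 1.49 in that of clone AK144927 and 1.38 in the region named after Tuba3b, an alpha tubulin gene. Of the sets fitted apart, set D of AK144927 was called (1.90) and its set C was not (0.67), and neither set of Tuba3b was called. The 4 rises outside the 10 were in regions named after Chic2 (1.37), Nav3 (1.19), Lemd1 (1.17) and the clone AK038731 (1.16). Kept probes well above background on both passage 2 arrays numbered 2 of 3 for Kalrn and Tuba3b and 3 of 4 for Ctnnd1 and Dusp4. On both passage 7 arrays they numbered 2 of 3 for Yap1 and 2 of 4 for BC061253. In all 10 regions both passage 7 arrays read higher than both passage 2 arrays, which calling them on these same 4 arrays largely ensures. The Tuba3b region was the least stable of them, since its call held under 4 of 20 alternatives, against 17 of 20 for AK043252 and Maml2 and 16 of 20 for Kalrn.

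The same criteria were met by 4 falls. Lrrc8b is a subunit gene of the volume-regulated anion channels, and the region named after it read -0.44 and -0.02 at passage 2 and -1.90 and -1.77 at passage 7. It fell by 1.61 on the log2 scale (SE 0.23; limma, adjusted p = 0.0201), and its 4 probes fell together, with changes of -1.68 to -1.57. Plekha8 encodes a glycolipid transfer protein, and its region read -0.71 and -0.81, then -2.01 and -2.14, a change of -1.31 ± 0.19 (limma, adjusted p = 0.0195). Its probes were as close, from -1.33 to -1.30. In both regions the probes carry the same numbers in sets A and B, whose same-numbered probes nearly repeat each other (r = 0.983 for levels), so this closeness adds little.

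Gpr63 is a G protein-coupled receptor gene, and its region read -2.59 and -2.06 at passage 2 and -3.83 and -3.81 at passage 7. Its change was -1.49 ± 0.25 (limma, adjusted p = 0.0261). The region of clone AK087124 changed by -1.19 (limma, adjusted p = 0.0313), from -2.06 and -1.70 to -3.14 and -2.99. In these 4 regions the passages did not overlap, which calling them on the same arrays largely ensures. With normexp background correction, under which limma called no feature (7 lincRNA regions at an unadjusted p under 0.05), the change was 0.31 for Gpr63 and 0.17 for AK087124. The kept probes of Lrrc8b, Gpr63 and Plekha8 belong to sets A and B, and those of AK087124 to sets A, B and C.

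In 2 called regions no kept probe was well above background in 1 of the passages, so that their change has only an approximate lower bound. It is set against the lowest signal well above background of each array in the dim passage. Some probes with higher signals than that were not marked well above background. The AK029598 region was not well above background at passage 2 (-7.61 and -9.03) and read -5.15 and -4.25 at passage 7. By this bound the region was at least 6.65-fold higher at passage 7 (limma, adjusted p = 0.0247). Rps12 is a ribosomal protein gene, and its region read -6.28 and -6.25 at passage 2. It was not well above background at passage 7 (-8.01 and -7.52), and by the same bound was at least 1.23-fold lower (limma, adjusted p = 0.0242). With normexp the Rps12 change was 1.73. The call held under 13 of 19 alternatives for AK029598 (changes of 0.51 to 4.32) and 7 of 19 for Rps12 (-1.94 to 1.73). Both regions rest on 2 kept probes. The other called regions, with 2 kept probes or smaller changes, included rises in regions named after Mbd5 (2.46) and Ikzf2 (1.03).

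**Figure D2:**
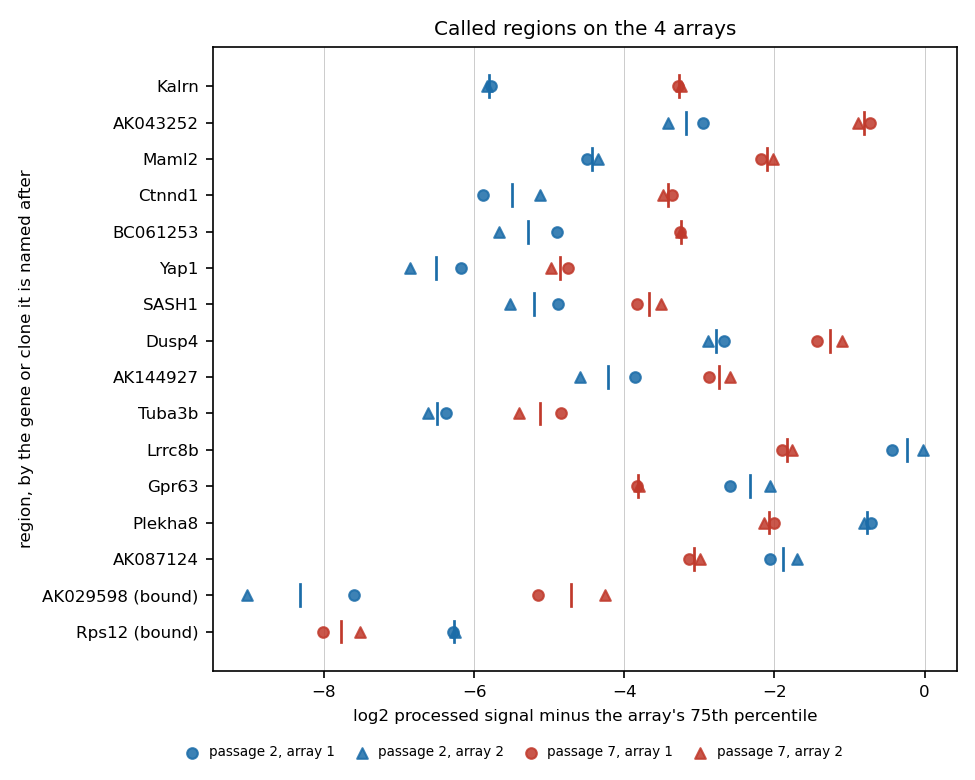
Scaled log2 signal of 16 called regions on each of the 4 arrays (circles, array 1; triangles, array 2; blue, passage 2; red, passage 7), with a vertical tick at each passage mean. The upper 10 rose, the next 4 fell and the last 2 (bound) were not well above background in the dimmer passage. Passages do not overlap in any of them, which their selection on these same arrays largely ensures. The Kalrn arrays lie at -5.78 and -5.83 against -3.29 and -3.25.

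The probe sets did not read all regions alike. Probes of the same number in sets A and B gave nearly the same level (r = 0.983 over 1569 pairs) and like changes (r = 0.805 over 483 pairs that were both kept). Those of sets C and D did not (r = 0.285 for levels over 1314 pairs, r = 0.07 for changes over 342). The pairs share a region name, the arrays and the labelled RNA. Within a set, neighbouring C or D probes of a region gave r = 0.951 for levels. Of 661 targets of sets C and D, 194 had a kept probe in both sets, 108 in C alone, 186 in D alone and 173 in neither. When each region was split by set and fitted again, a choice made after seeing the data, 57 of 955 values were called (44 higher, 13 lower), against 17.1% of all features in that fit. They came from 55 regions, of which 32 were also called in the fit of whole regions. Among pairs of kept probes of the same number, changes had opposite signs in 54 of 342 for C and D and 43 of 483 for A and B. Neighbouring probes of 1 set did so in 60 of 570 pairs in C or D and 46 of 339 in A or B. The difference between these shares was not tested. Among 193 regions measured by C and D, 32 changed with opposite signs, and in 2 of these both changes passed 2-fold.

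The Gas5 region was 1 of these 2. Its set C probes read -2.79 and -2.33 at passage 2 and -4.02 and -3.91 at passage 7, a change of -1.40 ± 0.24 (limma, adjusted p = 0.0273). Its set D probes read -3.19 and -3.68, then -2.78 and -1.86, a change of 1.11 ± 0.39 that was not called (limma, adjusted p = 0.118). Averaged over the sets, the region changed by -0.15 ± 0.25 and was not called (limma, adjusted p = 0.691).

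Cdt1 encodes a licensing factor of DNA replication. Set D of the region named after it read -0.59 and -1.22 at passage 2 and 2.18 and 2.52 at passage 7, a rise of 3.25 ± 0.30 (limma, adjusted p = 0.0109), while set C changed by -0.04 ± 0.62. The whole region, with a change of 1.60 ± 0.45, was not called (limma, adjusted p = 0.0736). The passages were far apart in set D and overlapped in set C (-1.34 and -2.93, then -2.55 and -1.79). In the AK085876 region set D rose by 2.69 (limma, adjusted p = 0.0288), from -4.92 and -6.17 to -3.02 and -2.70. Its set C stayed between 5.01 and 5.45 on all 4 arrays. This region had the second widest range of probe changes among regions with at least 5 probes detected on every array.

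The widest range was that of the AK021262 region. Its set D probes fell by 3.18 on the log2 scale (SE 0.27; limma, adjusted p = 0.0101), from -1.88 and -2.14 to -4.92 and -5.47. Its probes of sets A and B read -1.58 and -3.24 at passage 2 and -2.36 and -1.56 at passage 7, overlapping between passages. The opposite case was the AK036369 region, where set C was called higher (limma, adjusted p = 0.00939) and set D changed by 0.36. The set C value rests on 1 kept probe, whose passage 2 levels of -8.77 and -9.06 lay below the lowest signals well above background on those arrays (-7.15 and -7.72), so its size is not given.

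**Figure D3:**
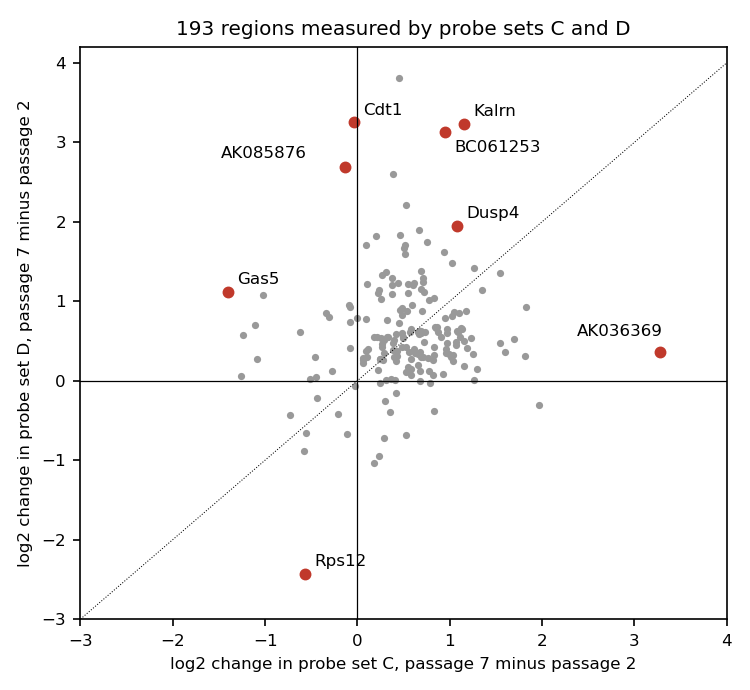
Log2 change between passages of the set C probes (horizontal) and the set D probes (vertical) of 193 regions measured by both sets, with the line of equal change dotted. Labelled points include Gas5, which lies at -1.40 in C and 1.11 in D, and Cdt1, at -0.04 in C and 3.25 in D.

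Of the tested regions 11 are named after noncoding RNA genes of RefSeq; they were taken by name after their values had been seen. Limma called none of them in the fit of whole regions. The Malat1 region read -2.35 and -2.83 at passage 2 and -1.21 and -0.02 at passage 7, a change of 1.98 ± 0.47 (limma, adjusted p = 0.0507). The passages did not overlap, and the passage 7 arrays lay further apart (SD 0.84) than those of passage 2 (SD 0.34). All 4 of its kept probes belong to sets A and B, and its probes of sets C and D were not well above background on any array. It was called under 8 of 20 alternatives, as was Phxr4.

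The region named after Neat1, the scaffold RNA of paraspeckles, by the synonym 2310043N10Rik had 12 probes, 8 of them kept. Whether these probes read the Neat1 RNA is not stated. The region read -3.55 and -5.13 at passage 2 and -3.38 and -3.25 at passage 7. Its change of 1.03 ± 0.56 was not called (limma, adjusted p = 0.253). The 2 passage 2 arrays differed most in set C, at -0.44 and -5.43, while set D stayed between -4.19 and -3.68 on all 4 arrays. In sets A and B the change was 1.34 ± 0.38 (limma, adjusted p = 0.0755). None of the 3 set values of the Neat1 region was called.

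The region named after Xist, the RNA that coats the inactive X chromosome, read -5.71 and -6.60, then -5.34 and -5.08. Its change of 0.94 ± 0.36 was not called (limma, adjusted p = 0.136). A RefSeq feature for Xist elsewhere on the array changed by -0.19 (limma, adjusted p = 0.782). The region of Firre, a nuclear RNA made from the X chromosome, changed by 0.52, that of Mexis by 0.48 and that of Map2k3os by 0.22. The Emx2os region changed by 1.08 and both regions of Gnasas1, an antisense RNA of the imprinted Gnas locus, by 0.42 and 0.21. In each of these 6 regions the passages overlapped. No probe of the Tug1 region was kept.

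**Figure D4:**
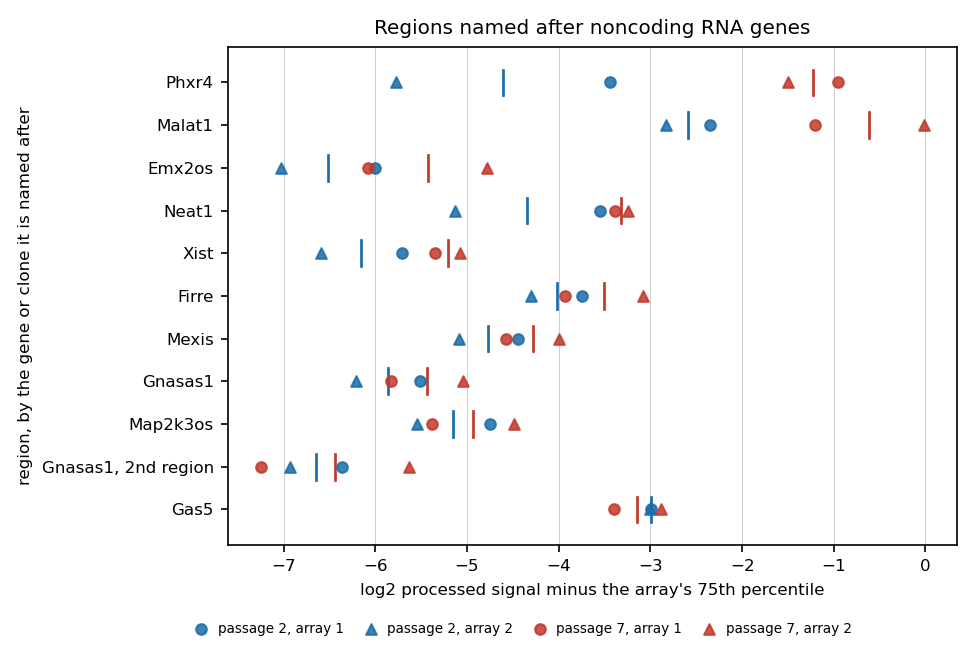
Scaled log2 signal on each of the 4 arrays of 11 regions named after noncoding RNA genes (circles, array 1; triangles, array 2; blue, passage 2; red, passage 7), with a vertical tick at each passage mean. Passages are apart in Phxr4, Malat1, Neat1 and Xist and overlap in the other regions, and none was called. With 2 arrays a passage such separation is frequent without any change, and its share over all features was not counted.

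A list of 56 well-known noncoding genes set beside the regions had 3 members on the array under a RefSeq accession. These were Xist, Terc (the telomerase RNA, 0.18) and Snhg3 (a snoRNA host, 0.19), and limma called none of the 3. A lincRNA region was matched for 6 list members, namely Malat1, Neat1, Gas5, Xist, Firre and Tug1. RefSeq noncoding accessions numbered 13 on the array, of which 11 were tested and 3 called (27.3%). The 3 called carry the symbols Gm10052, Hyi and Nemp2, none of them on the list of 56. Such an accession classes a transcript and not its gene, so this share is not one for noncoding RNA genes. RefSeq mRNA accessions were called in 18.5% of 14112, and other custom transcript designs in 14.6% of 1729.

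The change of a region showed little relation to that of the RefSeq transcript of the gene it is named after. That transcript was noncoding for Xist. Over 398 tested regions with such a transcript tested, the correlation of changes was r = 0.0564, and over the 189 with at least 3 kept probes it was r = 0.124. These points share arrays and scaling, and several regions share a gene. Of 324 such genes, 14.8% were called. A tested transcript stood beside 19 called regions; it was called in the same direction for 2 of them and in the opposite direction for 2.

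The 2 shared directions were Gpr63 and Mbd5, a methyl-CpG-binding domain gene. The Gpr63 mRNA changed by -1.42 (limma, adjusted p = 0.0264). It averaged -7.17 over the 4 arrays, among the lowest signals well above background (-7.72 to -6.00), so the size of its change is uncertain. The Mbd5 mRNA changed by 1.04 (limma, adjusted p = 0.0334) beside a rise of 2.46 in the region. The opposite directions were those of Plk4 and S1pr3. Plk4 encodes the kinase of centriole duplication. A region named after it read -5.77 and -5.50 at passage 2 and -3.55 and -3.74 at passage 7, a rise of 1.99 ± 0.21 (limma, adjusted p = 0.0122). The Plk4 mRNA fell by 2.90 on the log2 scale (limma, adjusted p = 0.00869), and another region of that name changed by 0.33.

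S1pr3 encodes a receptor for sphingosine 1-phosphate, and its older symbol Edg3 names the region. The region rose by 1.41 (limma, adjusted p = 0.0396) and the mRNA changed by -1.69 (limma, adjusted p = 0.0435). For Cdt1 the contrast lay in set D: those probes rose by 3.25 while the mRNA fell by 1.66 on the log2 scale (limma, adjusted p = 0.0139). Rps12 (mRNA change 0.91), Plekha8 (0.64), Yap1 (-0.50), Dusp4 (0.52) and Ctnnd1 (0.19) had mRNA changes that were not called.

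**Figure D5:**
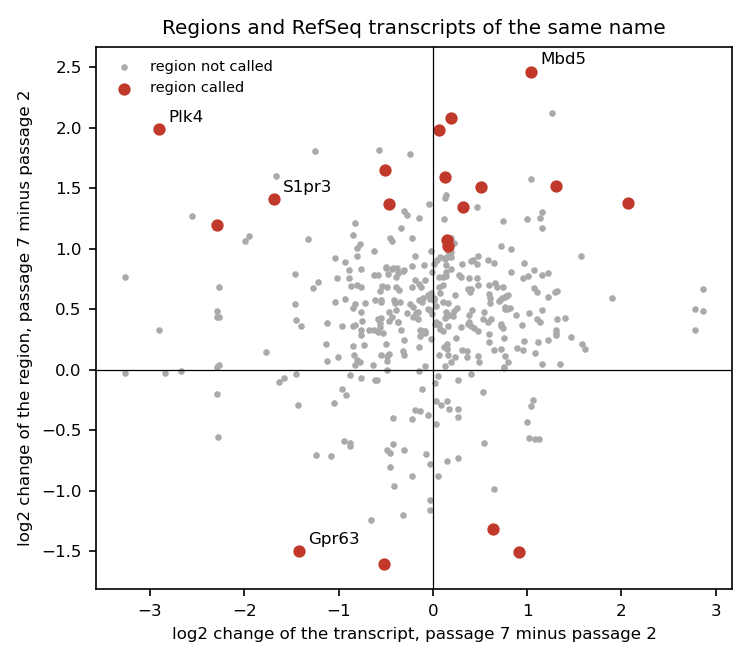
Log2 change of each of 398 regions (vertical) against that of the RefSeq transcript with the symbol the region is named after (horizontal), passage 7 minus passage 2; red points are called regions and labels mark those whose transcript was called as well. Plk4 lies at 1.99 for the region and -2.90 for the mRNA, and Gpr63 at -1.49 and -1.42. The Gpr63 mRNA lay near the lowest signals well above background.

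At least 2 tested regions shared a gene or clone name in 76 cases. In 62 of these all changes had 1 sign. Of all 700 tested regions 586 had a change above 0, so a shared sign is frequent whatever the name. In 0 of the 76 did limma call 2 regions, beside the 35 regions called and 114 with an unadjusted p under 0.05 in all. The Nav3 name had 4 tested regions with changes from -0.20 to 1.19, of which 1 was called, and the Mbd5 name had 3, from -0.30 to 2.46. In contrast, the 3 regions named after Tbcc, a tubulin folding cofactor, changed by 0.98 to 1.05 without a call. A prefix of letters (B, E, M or N, of unstated meaning) stands in 159 names. Of those, 118 were tested, with 1 called higher and 1 lower. Of the 915 regions without a prefix 582 were tested, with 28 called higher and 5 lower. Of all features tested 17.5% were called (9.24% higher, 8.30% lower), and the difference between names with and without a prefix was not tested.

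Fibroblast markers gave signal in the cultures. Of 12 such markers 11 were on the array, at mean levels from -0.98 to 8.15, and 2 of them were called lower. The neural markers (0.84 and 2.13) and the highest macrophage (-0.43) and pluripotency (-0.45) markers lay within that range. Signals also depend on the probe, so these levels alone do not identify the cells. Of 5 division and senescence genes on the array 3 were called lower, among them Top2a (-2.68; limma, adjusted p = 0.00869), a topoisomerase of dividing cells, and 1 higher. In addition, 2 of 4 epithelial and 2 of 3 tested macrophage markers were called lower, while none of 4 endothelial, 2 neural and 2 pluripotency markers was called by limma, their levels lying between -6.24 and 2.13. The part of these other cells in the lincRNA changes was not tested.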

How the data were processed

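Cy3-labelled cRNA of pooled total RNA was hybridised to 1-colour arrays and scanned; per the file headers, spots were quantified in Feature Extraction (Agilent, version 10.5.1.1). The deposited scanner intensity values used are the background-subtracted processed signal, the median signal with its local background, and flags. The authors' deposited value table is close to log2 median signal; its centring and background treatment are not given in the sources used here, and the submitters' processing notes name limma alone. The array design names build mm9, and no coordinates of regions are printed.

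Log2 processed signal minus each array's 75th percentile over non-control spots was taken, outlier spots were left out and repeated spots averaged. A region's value is the mean of its kept probes. All array names were summarised alike and fitted together in R 4.3.3 with lmFit and eBayes of limma 3.58.1 (two-sided, no covariate, Benjamini-Hochberg adjustment). Arrays were not treated as pairs, because RNA of the cultures was pooled and the replicate numbers do not state a pairing. Deviations of the same-numbered arrays of the 2 passages had r = -0.194 over all features, which cannot show whether arrays were paired. The fit was tested on simulated data. Arrays limit precision by their number, 4.

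Described rises and falls are, among called regions with at least 3 kept probes all in 1 direction and signal in both passages, the 10 largest rises and falls. Added to these are bounded changes, the 5 highest signals and the 5 widest probe ranges, of which AK087393, Slc7a5 and C330007P06Rik were not called and are not described further. Regions named after noncoding genes, probe-set values and single others were chosen after seeing values. The regions and lists were chosen with earlier results of these data known. Alternatives changed the scaling, background, filter, probe summary, variance model, threshold, block and arrays. A called region whose name is withheld is not reported here.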

Additional observations from a re-analysis of the deposited data

How the results depend on the processing

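Counts are regions called, then higher and lower, against 35 (29 and 6), and probes against 158. Median scaling gave 69 (52 and 17) and 295 probes, quantile normalisation 41 (30 and 11), and the percentile over probes detected on all arrays 28 (19 and 9). The authors' values gave 21 (13 and 8). The share of called regions that were higher, 82.9%, was 75.4%, 73.2%, 67.9% and 61.9% under these 4 scalings in turn. Normexp background correction, run on the median spot signal since the files used here lack the mean, gave 0 regions and 0 probes in limma, with 7 regions at an unadjusted p under 0.05, and moved the lincRNA median to 1.74 and that of all features to 0.78. It also turned the Gpr63 (0.31), AK087124 (0.17) and Rps12 (1.73) regions upward. Followed by quantile normalisation, a choice added after seeing the data, it gave 10 (8 and 2) and 48 probes. Without the filter on dim probes 4 were called (4 and 0) and 22 probes, with all probes of a region 26 were called, 3 of them lower, and at 4-fold 10 were called (10 and 0) and 54 probes. With at least 3 kept probes, fewer regions by construction, 18 were called, 14 of them higher. Split by probe set, which was added later, 57 values were called (44 and 13). Detection at 3 probes fell to 356 and 293 regions. Leaving out 1 array, where a lone array is assumed to vary like those of the other passage, gave 0 to 81 regions (0 to 73 higher, 0 to 8 lower), 0 to 364 probes and medians from 0.10 to 0.81. The cause of these differences was not tested.

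With the replicate number as a block, 2 regions were called (2 higher, 0 lower) and 0 probes, with 86 regions at an unadjusted p under 0.05 in limma and 321 of all features called; the numbers do not pair the arrays. The crossed pairing, added after seeing the data, called 82 regions (71 higher, 11 lower) and 327 probes.

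Requiring signal on all 4 arrays, the probe median, the brightest probe, the trended robust variance model and no minimum fold called 32, 36, 39, 36 and 43 regions. Signal over background limits what can be measured: 374 regions had no kept probe, and the lowest signal well above background lay between -7.72 and -6.00 on the 4 arrays.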
